A study of Homo sapiens with 8 samples.

Results

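The prostanoid synthesis genes are the 10 genes PLA2G4A, PTGS1, PTGS2, PTGES, PTGES2, PTGES3, PTGIS, TBXAS1, HPGDS and PTGDS, taken by symbol from an expression table of 23615 gene symbols. Their levels are length-normalized expression values (FPKM, fragments scaled to transcript length and to the mapped fragments of the library) from total RNA depleted of ribosomal RNA. The study searched for receptors of EETs, the epoxyeicosatrienoic acids that cells form from arachidonic acid, by profiling 3 lines that bind EETs and 1 line that does not. The binding lines were U937, a leukemic line, EaHy, an endothelial line, and PC3M, a prostate cancer line that the culture protocol gives as PC3M-LN4, and the line without binding was HEK293, of embryonic kidney. The labels name no treatment. U937, EaHy and PC3M were grown in RPMI (with L-glutamine for PC3M) and HEK293 in DMEM, all with heat-inactivated serum and antibiotics. Each line gave 2 libraries from cells collected in duplicate, 8 in all, so the p-values describe the spread between such duplicates. The binding class sets 3 lines against 1, and it cannot be told apart from line or medium.

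Prostanoids are made from arachidonic acid in a short chain of steps. Cytosolic phospholipase A2 frees the fatty acid from membranes, a cyclooxygenase turns it into the unstable endoperoxide prostaglandin H2, and terminal synthases turn that into prostaglandin E2, prostaglandin D2, prostacyclin or thromboxane A2. The cyclooxygenase PTGS1 is regarded as the constitutive form and PTGS2 as the inducible form. Platelets and macrophages are known for thromboxane, vascular endothelium for prostacyclin and mast cells for prostaglandin D2.

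The libraries differed in ways that bear on every result. The libraries of EaHy replicate 2 and of both PC3M replicates were rich in small RNA and replication histone transcripts. Small RNA genes took 65.1% to 83.0% of all FPKM in these 3 libraries and 18.4% to 51.0% in the other 5. The median level of the tested genes, as log2(FPKM + 0.5), was 0.52 in PC3M replicate 2, 1.74 in PC3M replicate 1, 1.76 in EaHy replicate 2 and 2.29 to 2.98 in the other 5. The median log2 difference from HEK293 over all 16295 tested genes was −0.22 in U937, −0.67 in EaHy and −1.26 in PC3M. After upper-quartile scaling these medians were −0.10, −0.23 and −0.28, and after rescaling each library without small RNA and histone genes they were −0.12, −0.33 and −0.92. Differences of members are therefore also given beyond the median of all genes where it changes their reading. Marker lists followed the labels in part. The summed FPKM of 10 myeloid genes was 2070 and 3840 in U937 and at most 21.7 elsewhere, and that of 10 endothelial genes was 361 and 595 in EaHy and at most 19.1 elsewhere. In U937, 8 of the 10 myeloid genes reached 0.5 FPKM in both libraries, but CSF1R (0.46 and 0.703) and CD14 (0.114 and 0.171) did not. MPO was also low there, at 0.696 and 0.866. In EaHy, 9 of the 10 endothelial genes reached 0.5 FPKM in both libraries. VWF stood at 0.853 and 13.4 there, and KDR at 0.262 and 1.28, beside 1.29 and 0.393 in PC3M. The 10 epithelial and prostate genes summed to 456 and 127 FPKM in PC3M and to more, 694 and 427, in EaHy, where the keratin genes KRT8 and KRT18 were higher than in PC3M. Within that list EPCAM (36.9 and 10.5 FPKM) and KRT19 (177 and 57.8) were high in PC3M, whereas CDH1 and ESRP1 stayed at most at 0.487, KLK3 at 0.0138 and FOLH1 at 0 there.

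The 4 lines listed different sets of prostanoid synthesis genes. Of the 10 genes, 7 reached 0.5 FPKM in both libraries of U937, 6 in HEK293, 5 in PC3M and 3 in EaHy. PTGES2 and PTGES3 did so in all 4 lines, and no other member did. U937 was the line in which phospholipase, PTGS1 and thromboxane synthase were all above 5 FPKM. EaHy listed PTGS1 with little phospholipase, PC3M listed phospholipase and thromboxane synthase with little of either cyclooxygenase, and HEK293 listed phospholipase with a low level of PTGS2. At a limit of 0.1 FPKM the counts were 7 in U937, 8 in HEK293, 5 in PC3M and 7 in EaHy. The shares of all genes that reached these limits in each line were not counted. The counts of EaHy and PC3M rest in part on the histone-rich libraries, whose median levels were the lowest.

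**Figure D1:**
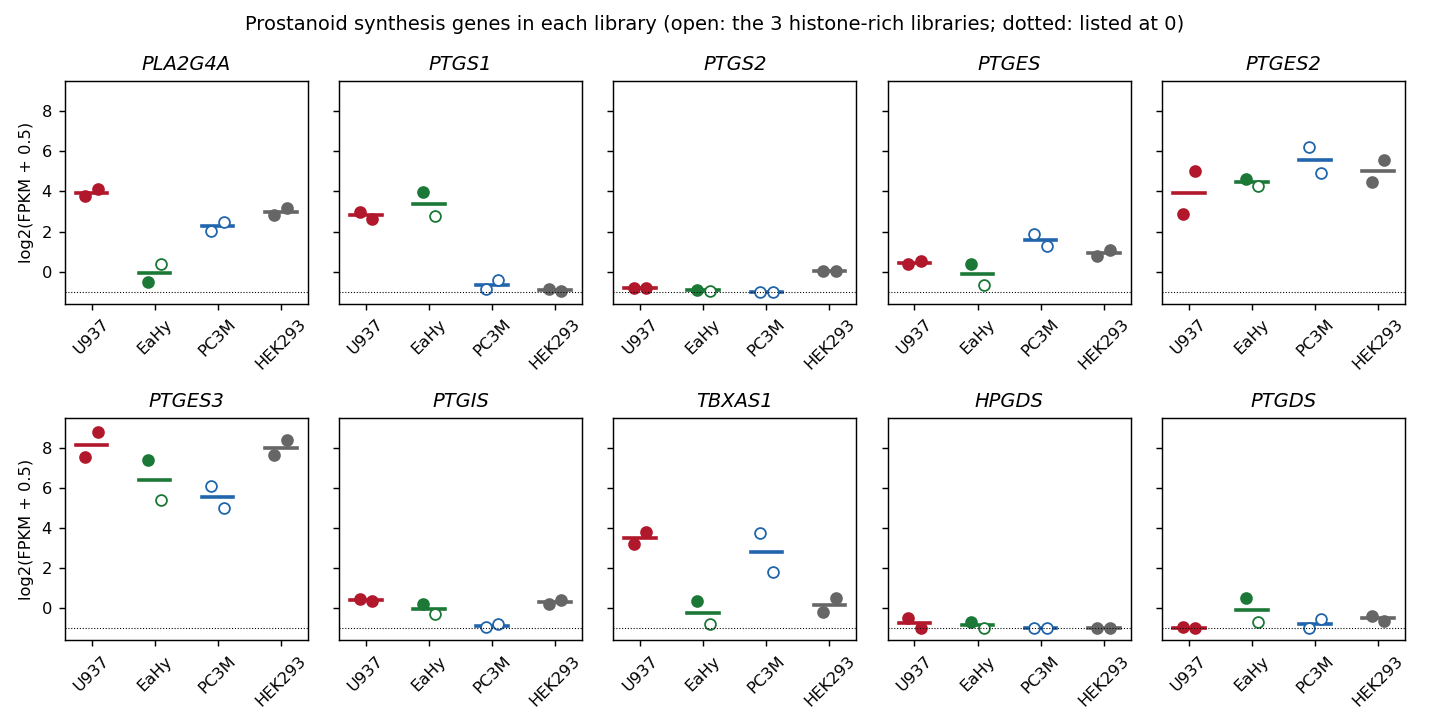
Level of each of the 10 prostanoid synthesis genes, as log2(FPKM + 0.5), in the 8 libraries by line, with replicate 1 on the left and replicate 2 on the right and a bar at the mean of each line. PTGS1 is high in U937 and EaHy and near the dotted level of a gene listed at 0 in PC3M and HEK293, and TBXAS1 is high in U937 and PC3M.

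The arachidonate-releasing enzyme PLA2G4A, cytosolic phospholipase A2 alpha, was lowest in EaHy. The U937 libraries held 13.1 and 17.1 FPKM, those of HEK293 6.48 and 8.42, those of PC3M 3.54 and 5.13, and those of EaHy 0.194 and 0.8. All 6 libraries of the other lines lay above both EaHy libraries. Here and below, lines were grouped by the values themselves, and the share of all genes with such a separation was not counted. On the log2(FPKM + 0.5) scale, the difference of EaHy was −3.05 ± 0.58 from HEK293 (± SE over duplicate libraries, limma adjusted p = 0.01) and −2.33 ± 0.58 from PC3M (limma adjusted p = 0.049). U937 exceeded EaHy by 4.02 ± 0.58 (limma adjusted p = 0.0029). The difference between U937 and EaHy passed in all 18 alternatives. The difference from HEK293 passed in 15 of 18. It missed with quantile normalization (−2.24, adjusted p = 0.075) and without HEK293 replicate 1 (−3.23, 0.074) or replicate 2 (−2.88, 0.11). The difference between EaHy and PC3M passed in 7 of 17 alternatives, with adjusted p from 0.026 to 0.36. It was lost with a pseudocount of 1 (0.066), no filter (0.077), a replicate block (0.057) and the fit of only these lines (0.36), and without U937 replicate 1 or 2 (0.095 and 0.1), EaHy replicate 1 (0.3), PC3M replicate 2 (0.13) or HEK293 replicate 1 or 2 (0.14 and 0.13). U937, HEK293 and PC3M followed each other in that order, and neighbours in it did not pass (adjusted p = 0.43 for U937 and HEK293, 0.35 for HEK293 and PC3M).

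The cyclooxygenases were highest in different lines, PTGS1 in EaHy and U937 and PTGS2 in HEK293. PTGS1, cyclooxygenase-1, stood at 15.4 and 6.34 FPKM for EaHy, 7.42 and 5.63 for U937, 0.0478 and 0.246 for PC3M, and 0.0505 and 0.0193 for HEK293. Grouped by these values, the 4 libraries of EaHy and U937 did not overlap with the 4 of PC3M and HEK293. The lowest of the first group stood at 5.63 FPKM and the highest of the second at 0.246. PTGS1 rose against HEK293 by 4.28 ± 0.56 in EaHy (limma adjusted p = 0.002) and by 3.70 ± 0.56 in U937 (adjusted p = 0.003). Against PC3M it was higher by 4.03 ± 0.56 in EaHy (adjusted p = 0.0045) and by 3.45 ± 0.56 in U937 (adjusted p = 0.0058). EaHy and U937 did not differ beyond their spread (adjusted p = 0.58), nor did PC3M and HEK293 (adjusted p = 0.75). PTGS1 met the filter of 0.5 FPKM only through EaHy and U937, so its differences from HEK293 and PC3M were built into its selection. Both differences from HEK293 and that between U937 and PC3M passed in every alternative, 18, 18 and 17 of them. That between EaHy and PC3M missed in a single alternative, the fit with only these lines (adjusted p = 0.23). The fold changes of a gene this low in HEK293 depended on the pseudocount: over the alternatives they ran from 3.40 to 6.22 in EaHy and from 2.85 to 5.61 in U937.

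PTGS2, cyclooxygenase-2, was low in every library. HEK293 gave 0.529 and 0.508 FPKM, U937 0.0726 and 0.0608, EaHy 0.0405 and 0.0175, and the gene was listed at 0 in both PC3M libraries. The HEK293 libraries lay above the other 6, but at a level that only just met the filter of 0.5 FPKM in 2 libraries. PTGS2 was tested through HEK293 alone, so a difference from that line was built into its selection. The comparison with PC3M passed (limma adjusted p = 0.032). It passed in 9 of 16 alternatives and was lost with each of the 3 scalings (adjusted p = 0.054 to 0.42) and without either PC3M library (0.063 and 0.14) or either HEK293 library (0.12 and 0.14). The differences of −0.85 ± 0.28 in U937 and −0.95 ± 0.28 in EaHy did not pass (adjusted p = 0.089 and 0.059). No fold is given against PC3M, where the gene was listed at 0, and the fitted difference was smaller than the median of all genes in that comparison. The U937 value passed without EaHy replicate 2 (adjusted p = 0.04), and both passed with no filter on low values (0.0071 in U937 and 0.0058 in EaHy).

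Set within a library, where no scaling between libraries enters, the balance of the cyclooxygenases turned over between lines. The ratio of PTGS1 to PTGS2 FPKM was 102 and 92.7 in U937 and 379 and 362 in EaHy. In HEK293 it was 0.0954 and 0.0381, so that PTGS2 was the more abundant form there. In PC3M no ratio can be formed, since PTGS2 was listed at 0. The ratios outside HEK293 divide by PTGS2 values under 0.1 FPKM, and with the pseudocount of 0.5 the EaHy libraries differed, at 4.87 and 3.72 on the log2 scale.

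**Figure D2:**
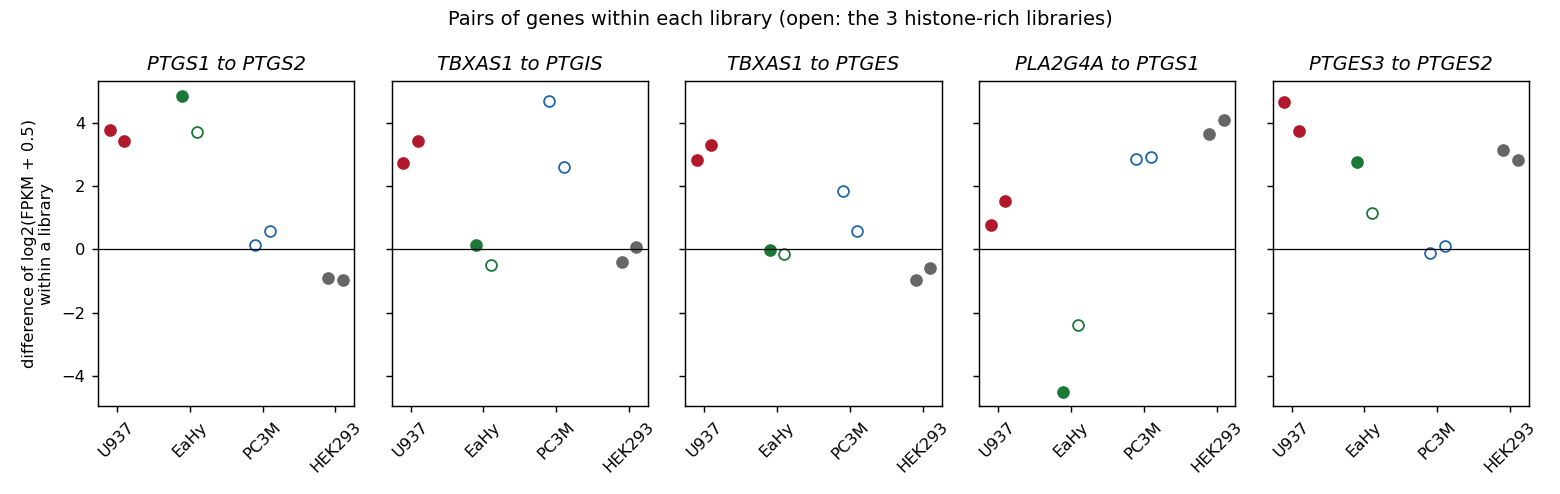
Difference of log2(FPKM + 0.5) between 2 genes of the same library, for 5 pairs, by line, with replicate 1 left and replicate 2 right and open points for the 3 histone-rich libraries. PTGS1 exceeded PTGS2 by 3.45 to 4.87 in U937 and EaHy and lay 0.90 to 0.96 below it in HEK293, and PTGES3 and PTGES2 were level in PC3M.

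PTGS2 and PLA2G4A are neighbours on chromosome 1, with no protein-coding gene annotated between them, and point away from each other. By line means their order was not the same: PLA2G4A led in U937 and PTGS2 in HEK293. The difference between U937 and HEK293 did not pass for either gene (limma adjusted p = 0.43 for PLA2G4A and 0.089 for PTGS2). The ratio of PLA2G4A to PTGS2 FPKM was 180 and 280 in U937, 12.2 and 16.6 in HEK293, and 4.81 and 45.7 in EaHy. The 250 bases before the annotated starts of PTGS2, PLA2G4A, PTGS1 and TBXAS1 are shown, to set the cyclooxygenases beside each other and PTGS2 beside its neighbour (RefSeq, build GRCh38.p14, 5′ to 3′ on the gene's strand). Capitals mark matches, on either strand, to the TATA box (TATAAA), the GC box (GGGCGG), the CCAAT box, the core of a cyclic AMP response element (TGACG), the AP-1 motif (TGANTCA), the PU.1 motif (GAGGAAGT), the E-box (CACGTG) or the NF-κB motif, which was GGGACT, then any 2 bases, then CC.
PTGS2, chr1:186680424-186680673, minus strand: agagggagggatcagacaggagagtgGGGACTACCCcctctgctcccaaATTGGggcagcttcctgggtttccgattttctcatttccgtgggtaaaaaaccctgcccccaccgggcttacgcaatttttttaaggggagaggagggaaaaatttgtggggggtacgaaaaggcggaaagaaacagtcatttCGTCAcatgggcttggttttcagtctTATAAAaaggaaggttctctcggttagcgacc
PLA2G4A, chr1:186828699-186828948, plus strand: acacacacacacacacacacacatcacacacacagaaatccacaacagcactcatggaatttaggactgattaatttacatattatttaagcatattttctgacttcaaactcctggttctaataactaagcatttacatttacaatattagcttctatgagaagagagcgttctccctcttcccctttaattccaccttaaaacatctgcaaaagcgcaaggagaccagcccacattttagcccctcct
PTGS1, first start, chr9:122370283-122370532, plus strand: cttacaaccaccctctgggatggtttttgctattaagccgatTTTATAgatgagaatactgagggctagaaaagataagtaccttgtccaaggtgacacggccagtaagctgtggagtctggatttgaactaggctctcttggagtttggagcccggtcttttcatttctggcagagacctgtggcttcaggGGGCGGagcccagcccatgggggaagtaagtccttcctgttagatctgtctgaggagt
PTGS1, second start, chr9:122375052-122375301, plus strand: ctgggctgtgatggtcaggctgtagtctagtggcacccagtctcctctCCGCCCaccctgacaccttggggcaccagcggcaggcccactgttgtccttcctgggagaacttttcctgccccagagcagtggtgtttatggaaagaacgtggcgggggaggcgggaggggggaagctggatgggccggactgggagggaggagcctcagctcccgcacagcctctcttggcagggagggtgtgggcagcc
TBXAS1, chr7:139829014-139829263, plus strand: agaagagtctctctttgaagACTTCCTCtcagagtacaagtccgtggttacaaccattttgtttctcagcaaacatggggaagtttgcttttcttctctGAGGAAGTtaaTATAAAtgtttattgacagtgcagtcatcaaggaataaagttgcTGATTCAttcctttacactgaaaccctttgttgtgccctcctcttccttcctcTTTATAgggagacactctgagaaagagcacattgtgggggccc
The PTGS2 window held a TATA box at −32, an inverted response element core at −58, an inverted CCAAT box at −201 and the NF-κB motif at −224, with the base before the start counted as −1 and the leftmost base of a match given. Of 35116 windows of the same length before RefSeq starts, 10.7% held a TATA box, 32% a CCAAT box, 21.2% the response element core and 1.52% the NF-κB motif. The PLA2G4A window held none of the 8 motifs. Each PTGS1 window held a GC box, as did 42.6% of all windows, and the first also held an inverted TATA box at −208. TBXAS1 held the PU.1 motif on each strand, where 2.17% of all windows held it on at least 1 strand, besides a match to the AP-1 motif (6.57% of windows) and a TATA box on each strand. No match overlapped another. These matches describe letters and no binding was measured. The windows of PTGES2 (first start) and PTGES3 held 29 and 30 CpG, more than 85.9% and 87.6% of all windows, against 1 in TBXAS1, 2 in PLA2G4A and 9 in PTGS2. Windows were found for 9 of the 10 members, and PTGIS had none.

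Thromboxane synthase, TBXAS1, was high in U937 and PC3M. Levels were 8.72 and 13.7 FPKM for U937, 13 and 3.06 for PC3M, 0.391 and 0.931 for HEK293, and 0.78 and 0.0786 for EaHy. Grouped by these values, the 4 libraries of U937 and PC3M lay above the 4 of HEK293 and EaHy. The lowest of the first group stood at 3.06 FPKM and the highest of the second at 0.931. TBXAS1 was higher than in HEK293 by 3.34 ± 0.76 in U937 (limma adjusted p = 0.019) and by 2.62 ± 0.76 in PC3M (adjusted p = 0.038). Beyond the median of all genes, the difference was 3.56 in U937 and 3.88 in PC3M. U937 also exceeded EaHy by 3.73 ± 0.76 (adjusted p = 0.014), while PC3M against EaHy just missed (−3.01 ± 0.76 for EaHy minus PC3M, adjusted p = 0.051). That last comparison passed with each of the 3 scalings (adjusted p = 0.0034, 0.0014 and 0.017). U937 and PC3M did not differ beyond their spread (adjusted p = 0.51).

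The TBXAS1 calls held in fewer alternatives than those of PTGS1. The U937 call against HEK293 held in 13 of 18 alternatives and missed without U937 replicate 1 (limma adjusted p = 0.066) or 2 (0.13), without HEK293 replicate 1 (0.16) or 2 (0.086), and with no filter (0.051). The PC3M call held in 9 of 17. It missed with a pseudocount of 0.1 (0.053), no filter (0.077) and the fit of only these lines (0.1). It also missed without U937 replicate 1 or 2 (0.061 each), HEK293 replicate 1 or 2 (0.18 and 0.15) or PC3M replicate 1 (0.091), where the log2 difference was 1.66. The U937 call against EaHy was lost without U937 replicate 1 (0.058) or 2 (0.1) or EaHy replicate 2 (0.084). In PC3M, 10 genes of mast cells and platelets summed to 0.474 and 0.37 FPKM, with 6 of them at 0 in both libraries, and the 10 myeloid genes to 2.71 and 5.12. TBXAS1 overlaps HIPK2, a kinase gene on the opposite strand, and the labels do not say that counting used the strand. HEK293 gave 7.59 and 9.33 FPKM of HIPK2, U937 4.02 and 3.87, EaHy 6.45 and 0.654, and PC3M 1.96 and 0.269. The part of HIPK2 reads in the TBXAS1 level was not tested.

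Prostacyclin synthase, PTGIS, stayed under 1 FPKM in all lines, the endothelial line included. The U937 libraries held 0.89 and 0.802 FPKM, those of HEK293 0.672 and 0.858, those of EaHy 0.664 and 0.32, and those of PC3M 0.0158 and 0.0877. Both PC3M libraries lay below the other 6. The fit gave −1.20 ± 0.37 for PC3M against HEK293 (limma adjusted p = 0.044) and 1.29 ± 0.37 for U937 against PC3M (adjusted p = 0.041). The first of these stands 0.06 from the median of all genes in that comparison, and quantile normalization brought it to 0.04 (adjusted p = 0.96). The second stands 0.35 from the median of its comparison. It missed with upper-quartile scaling (limma adjusted p = 0.11), quantile normalization (0.24) and the rescaling without small RNA and histone genes (0.06). Each call held in 4 of 16 alternatives, and both were lost with a replicate block (0.055 and 0.052) and without any single library of U937, PC3M or HEK293. The ratio of TBXAS1 to PTGIS FPKM within a library was 820 and 35.0 in PC3M, 9.80 and 17.1 in U937, 1.17 and 0.246 in EaHy, and 0.583 and 1.09 in HEK293. Grouped by these ratios, U937 and PC3M thus lay above EaHy and HEK293 without overlap. The PC3M ratios divide by PTGIS values of only 0.0158 and 0.0877 FPKM, so their size is uncertain. With the pseudocount, the log2 differences were 4.71 and 2.6 in PC3M and 2.73 and 3.45 in U937. On that scale PC3M and U937 overlapped, and both lay above EaHy and HEK293, which reached at most 0.14.

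The 3 genes named as prostaglandin E synthases lay at very different levels. PTGES3, the cytosolic form, is also p23, a co-chaperone of HSP90, and was the most abundant member in 7 of the 8 libraries. Levels were 189 and 437 FPKM for U937, 197 and 335 for HEK293, 170 and 42.4 for EaHy, and 67.3 and 31.5 for PC3M. The 3 histone-rich libraries held its 3 lowest values. The difference of PC3M from HEK293 was −2.47 ± 0.89 and did not pass (limma adjusted p = 0.07), and it was −1.21 beyond the median of all genes. U937 minus PC3M was 2.63 ± 0.89 (limma adjusted p = 0.067) and passed with quantile normalization (2.60, 0.037) and the rescaling (2.25, 0.042). It missed with upper-quartile scaling (1.36, limma adjusted p = 0.12). Beyond the median of all genes this difference was 1.69 as deposited. The reference annotation lists 5 processed pseudogenes of PTGES3, none of which has a row in the table, so its reads may have been shared with these copies.

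PTGES2, the membrane-associated form 2, was highest in PC3M. The PC3M libraries held 72.8 and 29.3 FPKM, those of HEK293 21.9 and 46.7, those of EaHy 24.4 and 19.0, and those of U937 6.82 and 31.9. The libraries of PC3M, HEK293 and U937 overlapped, and no comparison passed as deposited. PTGES3 lay above PTGES2 in 7 of the 8 libraries. The ratio of PTGES3 to PTGES2 FPKM was 27.6 and 13.7 in U937, 9 and 7.18 in HEK293, 6.98 and 2.23 in EaHy, and 0.924 and 1.07 in PC3M. PC3M was the line where the pair stood at about equal levels, and EaHy replicate 2, also histone-rich, was the next lowest. The part of this library difference in the ratio was not tested.

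PTGES, the inducible microsomal synthase that is known to work with PTGS2, was low to moderate in all lines. Levels were 3.21 and 1.9 FPKM for PC3M, 1.23 and 1.63 for HEK293, 0.796 and 0.944 for U937, and 0.799 and 0.142 for EaHy. The PC3M libraries lay above the other 6. No comparison passed as deposited, with 0.64 ± 0.51 for PC3M against HEK293 (limma adjusted p = 0.35) and −1.71 ± 0.51 for EaHy against PC3M (adjusted p = 0.089). Scaling changed this call. PC3M exceeded HEK293 by 1.78 with upper-quartile scaling (adjusted p = 0.034) and by 2.39 with quantile normalization (0.0083), while U937 minus PC3M was −2.13 and −2.26 (0.015 and 0.006) and EaHy minus PC3M was −2.51 and −2.57 (0.012 and 0.0057). With the rescaling that leaves out small RNA and histone genes, the difference from HEK293 was 1.02 and did not pass (0.14), while EaHy minus PC3M did (−1.83, adjusted p = 0.042). PTGES2 in PC3M also passed against HEK293 with upper-quartile scaling (1.92, adjusted p = 0.046) but not with quantile normalization (1.26, 0.16) or the rescaling (1.01, 0.22). U937 minus PC3M passed with all 3 scalings for PTGES2, at −2.86, −2.39 and −1.98 (limma adjusted p = 0.01, 0.021 and 0.043).

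The prostaglandin D synthases were barely listed. HPGDS, the hematopoietic form, stood at 0.209 FPKM in U937 replicate 1 and 0.128 in EaHy replicate 1, and at 0 in the other 6 libraries. PTGDS, the lipocalin-type form, reached 0.937 FPKM in EaHy replicate 1 and lay between 0 and 0.278 in the other 7. Neither reached 0.5 FPKM in 2 libraries, so neither was tested, and 8 of the 10 members were. A value of 0 in this table need not mean absence: 863 genes stood at 0 throughout the 8 libraries. Among them were RPS18, a ribosomal protein gene, TUBB, a tubulin gene, CSNK2B and BRD2, all chosen after their values were seen. Whether zeros of members arose in the same way was not tested.

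In counts, 2 of the 8 tested members were called higher and 0 lower in U937 against HEK293 by limma (PTGS1 and TBXAS1, with PTGS2 lower at an unadjusted p of 0.016), where 15.1% of all 16295 tested genes were called (4.47% higher and 10.6% lower). In EaHy, PTGS1 was higher and PLA2G4A lower, against 14.4% of all genes called (4.55% higher and 9.8% lower). In PC3M, TBXAS1 was higher and PTGS2 and PTGIS lower, against 27.7% of all genes. That comparison called 2.39% of all genes higher and 25.3% lower as deposited, 6.98% and 12.1% after upper-quartile scaling, and 7.87% and 8.98% after quantile normalization. U937 exceeded EaHy for PLA2G4A and TBXAS1 (12.7% of all genes called, 5.95% higher and 6.77% lower) and PC3M for PTGS1 and PTGIS (21.8%, as 17.2% higher and 4.57% lower, or 12.8% and 12.2% with upper-quartile scaling). EaHy exceeded PC3M for PTGS1 and lay below it for PLA2G4A (7.71%, as 6.28% higher and 1.44% lower). With 8 genes tested, no statement on the group as a whole is drawn from these counts. The median log2 difference of the 8 members was 0.13 in U937, −0.75 in EaHy and −0.23 in PC3M against HEK293, beside −0.22, −0.67 and −1.26 for all tested genes. The 3 comparisons share the HEK293 libraries.

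**Figure D3:**
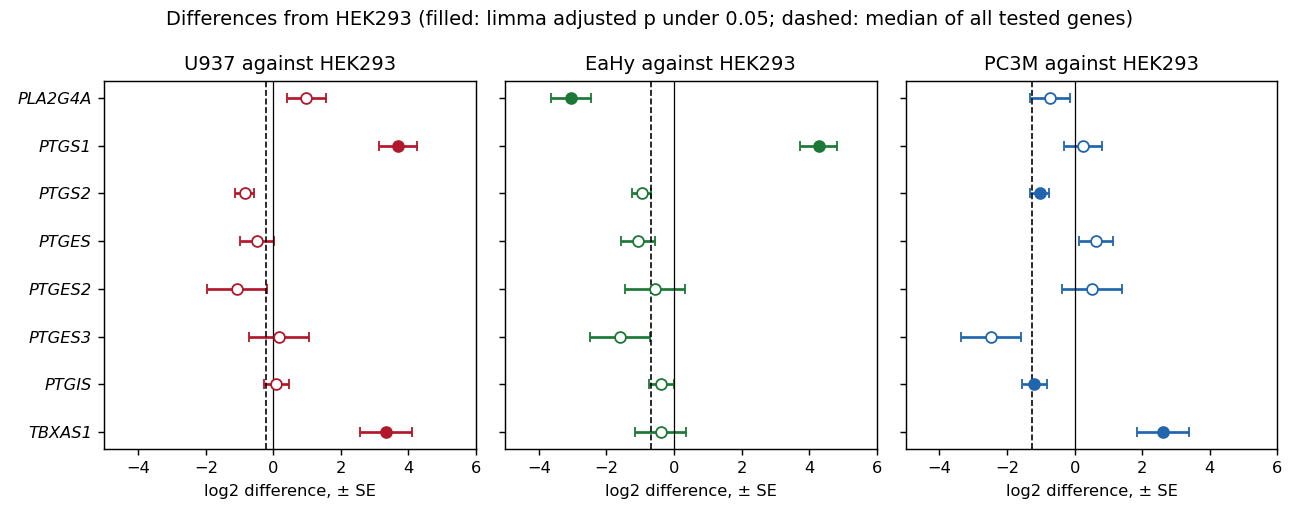
Difference from HEK293 of the 8 tested members in U937, EaHy and PC3M, on the log2(FPKM + 0.5) scale with SE bars, filled where the limma adjusted p was under 0.05 and with a dashed line at the median of all tested genes. PTGS1 stands at 3.70 in U937 and 4.28 in EaHy, TBXAS1 at 3.34 in U937 and 2.62 in PC3M, and PTGIS in PC3M lies next to the dashed line at −1.26.

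For each tested member the 2 most similar genes were taken by the correlation of log2(FPKM + 0.5) over the 8 libraries, as a description over libraries that share line and depth. The genes most like PTGS1 were TFEC, a transcription factor of myeloid cells (r = 0.995, 8 libraries), and CASP1, the inflammasome caspase (r = 0.99). For TFEC, U937 gave 5.15 and 4.09 FPKM, EaHy 8.42 and 4.74 and PC3M 0.196 and 0.128, and both HEK293 libraries listed it at 0. In EaHy, where PTGS1 and TFEC were high, the 10 myeloid genes summed to 21.7 and 10.1 FPKM, with 3 of them at 0.5 FPKM or more in both libraries. Within the list, CD33 stood at 8.24 and 4.59 FPKM, LYZ at 3.66 and 4.35 and CTSG at 3.29 and 0.94. SPI1 (2.74 and 0) and PTPRC (0.818 and 0) were listed at 0 in replicate 2. HEK293 also listed LYZ, at 2.46 and 3.37 FPKM, and CTSG, at 3.95 and 0. The part of myeloid genes in the PTGS1 level of EaHy was not tested. Most like PLA2G4A were GLUL, glutamine synthetase (r = 0.993), and the transcription factor BATF3 (r = 0.987). PTGS2 went with TRO and FXYD6, genes high in HEK293 (r = 0.998 and 0.997), and TBXAS1 with NDUFB9, a subunit of respiratory complex I, and PRDM8 (r = 0.972 each). PTGES went with RNF207 and with TXN, thioredoxin (r = 0.967 and 0.946), PTGES2 with FARS2 and TBCCD1 (r = 0.985 and 0.976), PTGES3 with WDR62 and COASY (r = 0.992 and 0.991), and PTGIS with WASF2 and RCOR3 (r = 0.989 and 0.986). Among the members themselves the highest correlation was between PTGES3 and PTGIS (r = 0.85) and the lowest between PTGS1 and PTGES (r = −0.74).

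Genes around the synthesis pathway were counted from 7 lists, of which 78 genes were tested. In U937, 12 of them were higher than in HEK293 and 4 lower (20.5% called, against 15.1% of all genes). In EaHy, 7 were higher and 2 lower (11.5%, against 14.4%), and in PC3M 2 higher and 12 lower (17.9%, against 27.7%).

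Of 21 tested genes of arachidonate release and re-esterification, 4 were higher and 1 lower in U937, 2 higher and 1 lower in EaHy, and 0 higher and 3 lower in PC3M by limma (0 and 8 at an unadjusted p under 0.05). These are 23.8%, 14.3% and 14.3% of the list, against 15.1%, 14.4% and 27.7% of all genes. LPCAT2, which puts acyl chains back into lysophospholipids, stood at 20.5 and 17.5 FPKM for U937, 17.9 and 19.1 for EaHy, 3.13 and 4.49 for HEK293, and 0 and 0.0323 for PC3M. Against HEK293 it rose by 2.19 ± 0.53 for U937 (limma adjusted p = 0.025) and by 2.16 ± 0.53 for EaHy (0.03), and fell by 3.05 ± 0.53 in PC3M (adjusted p = 0.0082). These calls held in 13 of 18, 10 of 18 and 15 of 17 alternatives. ACSL5, a long-chain acyl-CoA synthetase, was higher by 4.92 ± 0.55 for U937 (limma adjusted p = 0.0011) and 3.32 ± 0.55 for EaHy (0.0056), and PLCB2, a phospholipase C of blood cells, by 4.24 ± 0.41 in U937, the line through which alone it met the filter. ACSL5 met the filter through U937 and EaHy alone. Of 11 tested further phospholipases A2, PLA2G2C, which met the filter through U937 alone, was higher and PLA2G16 lower in U937 (18.2% called, against 15.1% of all genes), none passed in EaHy by limma (4 were lower at an unadjusted p under 0.05), and PLA2G6 and PNPLA8 were lower in PC3M. The last 2 calls (−2.09 ± 0.65 and −1.91 ± 0.61, beside −1.26 for all genes, limma adjusted p = 0.045 and 0.049) held in 6 and 3 of 17 alternatives. The share of this list called was 0% in EaHy and 18.2% in PC3M, against 14.4% and 27.7% of all genes. For PLA2G16, the HEK293 libraries held 7.27 and 8.7 FPKM and those of U937 0.0728 and 0 (limma adjusted p = 0.0038).

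AKR1B1, an aldo-keto reductase with prostaglandin F synthase activity, was nearly absent in the lines that were high for TBXAS1. U937 gave 0.505 and 0.102 FPKM and PC3M 0.188 and 0.111, against 97.4 and 153 for EaHy and 106 and 234 for HEK293. The 2 pairs of lines did not overlap, and the share of all genes that separate in this way was not counted. The difference of AKR1B1 from HEK293 was −7.66 ± 0.66 for U937 and −7.93 ± 0.66 for PC3M (limma adjusted p = 0.00057 and 0.0011), and both calls held in all 18 and 17 alternatives. AKR1C3, another prostaglandin F synthase, was higher in EaHy (2.21 ± 0.60, adjusted p = 0.043), a call that held in 4 of 18 alternatives. Of 4 tested prostaglandin F synthase genes, 25% were called in each line, against 15.1%, 14.4% and 27.7% of all genes in U937, EaHy and PC3M. Among 8 tested genes of transport and inactivation, PTGR1, a reductase that inactivates prostaglandins and leukotriene B4, rose by 3.77 ± 0.46 in EaHy and 3.13 ± 0.46 in PC3M (adjusted p = 0.0016 and 0.0041). The EaHy libraries held 8.28 and 5.33 FPKM of PTGR1 and those of PC3M 4.96 and 3.37, against at most 0.0683 in the U937 and HEK293 libraries. PTGR1 thus met the filter through EaHy and PC3M alone. AKR1C1, which met it through U937 alone, was higher there (1.82 ± 0.43, limma adjusted p = 0.022). CBR4 was lower in PC3M (−2.41 ± 0.69, adjusted p = 0.037, beside −1.26 for all genes), in 7 of 17 alternatives. The calls are 12.5%, 12.5% and 25% of the list in U937, EaHy and PC3M, against 15.1%, 14.4% and 27.7% of all genes.

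The prostanoid receptors give the other side of the pathway. Of 9 receptor genes, 7 were tested. Called were 28.6% of these in U937, 28.6% in EaHy and 14.3% in PC3M, against 15.1%, 14.4% and 27.7% of all genes. PTGER4, the EP4 receptor of prostaglandin E2, stood at 13.3 and 9.19 FPKM for EaHy and 10.4 and 11.2 for U937, the lines with PTGS1. PC3M gave 0.979 and 0.222 FPKM and HEK293 0.137 and 0.133. The differences from HEK293 were 4.19 ± 0.56 for EaHy and 4.15 ± 0.56 for U937 (limma adjusted p = 0.0022 and 0.0019). PTGIR, the prostacyclin receptor, was higher in EaHy at 2.36 and 1.08 FPKM (2.06 ± 0.37 against HEK293, limma adjusted p = 0.0076) and lay at most at 0.0923 in the other 6 libraries. PTGIR met the filter through EaHy alone, so this difference was built into its selection. In EaHy its level stood above that of the synthase PTGIS in both libraries. TBXA2R, the thromboxane receptor, stood at 2.35 and 2.11 FPKM for U937, 1.77 and 2.45 for HEK293, 1.24 and 0.188 for EaHy, and 0.259 and 0.154 for PC3M. Its fall in PC3M passed (−1.88 ± 0.53, adjusted p = 0.035, beside −1.26 for the median of all genes) and held in 7 of 17 alternatives. PC3M was thus high in TBXAS1 and lowest on average in TBXA2R, while U937 listed both. PTGER2 was called in U937 (adjusted p = 0.0036), and PTGER1, PTGDR2 and PTGFR did not pass in any comparison with HEK293. PTGER3 and PTGDR were not tested.

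**Figure D4:**
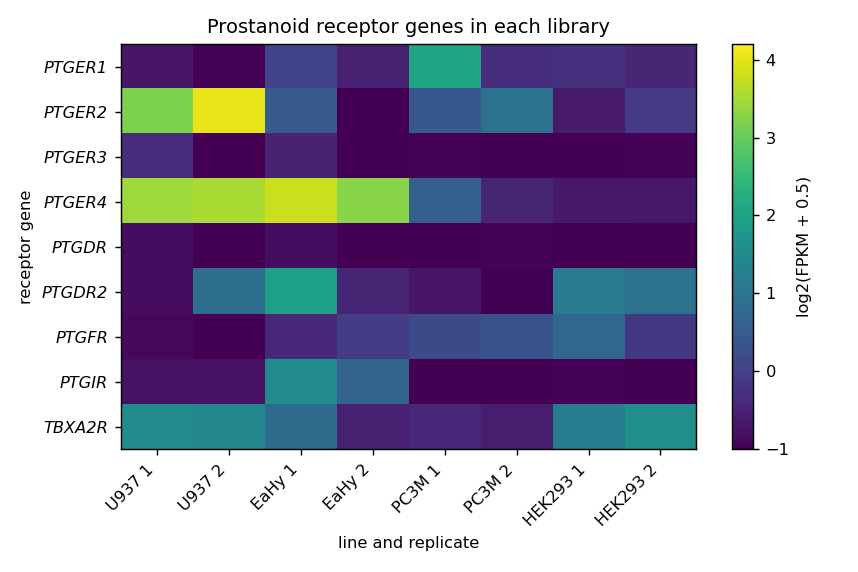
Levels of the 9 prostanoid receptor genes as log2(FPKM + 0.5), by color, in the 8 libraries. PTGER4 is high in the 4 U937 and EaHy libraries, PTGER2 in U937 and PTGIR in EaHy.

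Factors known to act on PTGS2 and partners of p23 completed the lists. Of 16 such transcription factors and RNA-binding proteins, 3 were higher and 1 lower in U937, 1 and 1 in EaHy, and 1 and 3 in PC3M, which is 25%, 12.5% and 25% of the list against 15.1%, 14.4% and 27.7% of all genes. ETV4, an ETS factor, was higher in all 3 lines than in HEK293 (3.18, 3.51 and 3.85 ± 0.71 in U937, EaHy and PC3M, limma adjusted p = 0.018, 0.013 and 0.01), and the calls held in 14 of 18, 15 of 18 and 15 of 17 alternatives. CELF2, an RNA-binding protein that binds PTGS2 mRNA, stood at 21.5 and 29 FPKM for U937, 3.04 and 3.39 for HEK293, and at most 0.165 for EaHy and PC3M. JUN, a subunit of AP-1, was listed at 145 and 97.4 FPKM in HEK293, above all other libraries, and fell by 3.76 ± 0.67 in U937 (adjusted p = 0.0067). Of 11 HSP90 chaperones and co-chaperones beside p23, FKBP5 was higher in U937 (3.54 ± 0.78, adjusted p = 0.016) and lower in PC3M (−2.82 ± 0.78, adjusted p = 0.033), calls that held in 14 of 18 and 8 of 17 alternatives, and none passed in EaHy by limma (0 also at an unadjusted p under 0.05). The list's calls were 9.09% in U937, 0% in EaHy and 9.09% in PC3M, against 15.1%, 14.4% and 27.7% of all genes. The list's median log2 difference from HEK293 was −0.67 in PC3M, beside −2.47 for PTGES3 and −1.26 for all genes.

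**Figure D5:**
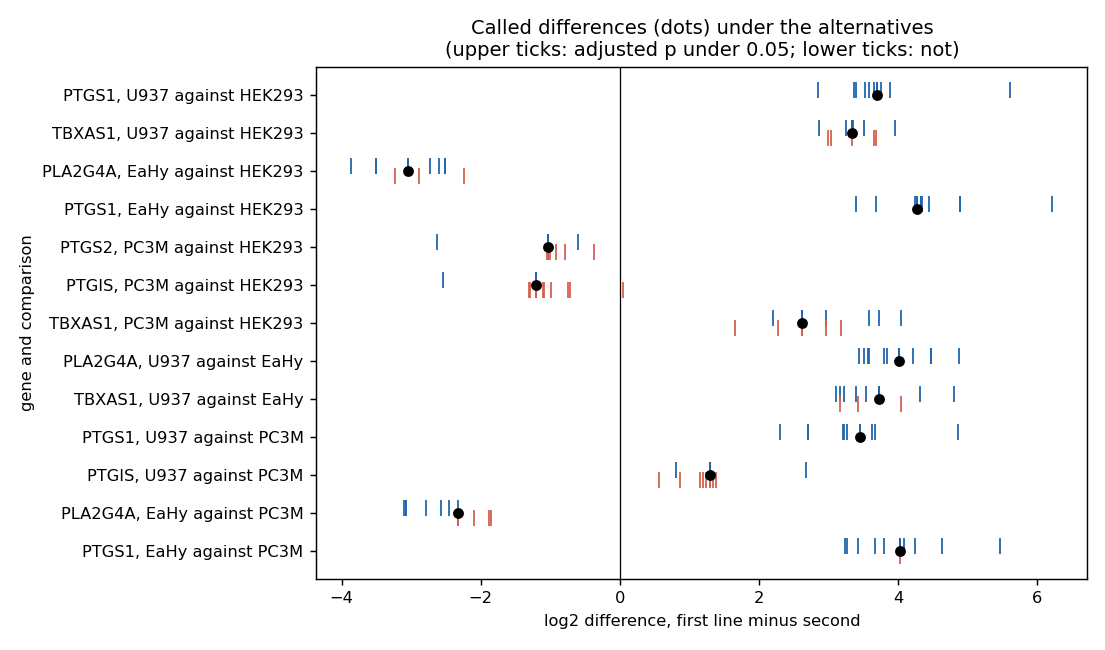
The 13 called differences of members between lines (dots, log2 scale) with their values under the alternatives, as upper ticks where the limma adjusted p was under 0.05 and lower ticks where it was not. PTGS1 in U937 and EaHy against HEK293 keeps upper ticks throughout, from 2.85 to 6.22, while PTGIS in PC3M has mostly lower ticks and reaches 0.04.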

How the data were processed

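Total RNA depleted of ribosomal RNA was sequenced in paired ends from 2 libraries of each of 4 cell lines, per the labels' protocols. The authors deposited 1 table of FPKM values per gene symbol and library. Per the submitters' processing notes, cutadapt, TopHat2 2.0.11 and Cufflinks 2.2.1 were used with build hg19. Their options, the annotation and the use of strand are not given in the sources used here.

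From these values, log2(FPKM + 0.5) was fitted with limma 3.58.1 in R 4.3.3 over all 8 libraries, with 1 mean per line, for the 16295 genes at 0.5 FPKM or more in at least 2 libraries. A gene was called where the Benjamini-Hochberg adjusted p, over all tested genes, was under 0.05. Fold changes on this scale understate those of low genes. The code was tested on simulated data. Alternatives changed the pseudocount, the filter, the scaling, the replicate block or the libraries fitted. Depth in counts is unknown: low values of the HEK293 libraries fell in steps, the most frequent ratio of replicate 2 to replicate 1 being 0.54, shared by 74 of 1785 low genes.

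All 10 members are named, with the 2 tested genes most correlated with each and all 9 receptors. Of each related list, up to 4 called genes with the largest change were picked in each comparison with HEK293. Picked genes not named above were MBOAT2 (log2 difference −3.09) and NFATC2 (3.46) in U937 and ACSL6 in EaHy (−1.53). In PC3M they were ACSL6 (−1.86), PLCB1 (−2.31) and SP1 (−2.53). NFATC2 met the filter through U937 and EaHy alone. Members and lists were chosen with earlier results of these data known. Promoter windows come from RefSeq on GRCh38.p14, another build than that of the files, and were matched by symbol only. Neighbouring genes come from GENCODE.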

Additional observations from a re-analysis of the deposited data

How the results depend on the processing

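Of the alternatives for member differences called in the main limma fit, 163 kept the direction and the call, 60 kept the direction and lost the call, and 1 changed sign. Of those for differences not called, 564 stayed so, 21 gained a call and 19 changed sign. The number of members called by limma was 2 in every comparison, or 3 for PC3M against HEK293. For EaHy against HEK293 it was 1 with quantile normalization. For PC3M against HEK293 it was 1 with no filter, with the filter at 1 FPKM and with rescaling without small RNA and histone genes. For U937 against PC3M it was 1 with no filter, the filter at 1 FPKM or only these lines, and 4 with quantile normalization. For EaHy against PC3M it was 1 with a pseudocount of 1 or no filter, 4 with each of the 3 scalings, and 0 with only these lines (3 at an unadjusted p under 0.05). With the replicate block it was 1 for U937 against PC3M and 1 for EaHy against PC3M. Replicate differences correlated between lines from −0.151 to 0.326, so the numbers were not taken as pairs. The related genes called were 16 in EaHy with quantile normalization (9 as reported) and 8 in PC3M with no filter (14 as reported).

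Leaving out each library in turn gave 1 to 3 members called for U937, 1 to 2 for EaHy and 0 to 3 for PC3M against HEK293, and 1 to 2 in each other comparison. The 0 arose without PC3M replicate 1, HEK293 replicate 1 or HEK293 replicate 2 (3, 3 and 2 at an unadjusted p under 0.05). The related genes called then numbered 6 to 20 for U937, 2 to 10 for EaHy and 1 to 29 for PC3M.

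With quantile normalization the sign changed for PLA2G4A (0.83) and PTGIS (0.04) in PC3M against HEK293, PTGIS (0.38) and TBXAS1 (0.29) in EaHy against HEK293, PTGES in U937 against HEK293 (0.12), PTGS2 in U937 against EaHy (−0.05) and TBXAS1 in U937 against PC3M (−0.53). With upper-quartile scaling it changed for PLA2G4A in PC3M against HEK293 (0.59) and TBXAS1 in U937 against PC3M (−0.46), and without the 3 histone-rich libraries for TBXAS1 in EaHy against HEK293 (0.18). Among these, PTGIS in PC3M had been called. Leaving out a library changed the sign of differences that were not called. These ran from −1.19 to 0.03 for PTGS1 in U937 against EaHy, −0.13 to 1.17 for PTGES2 in PC3M against HEK293 and −1.59 to 0.56 for PTGES2 in U937 against EaHy. For PTGES3 they ran from −0.44 to 0.77 in U937 against HEK293 and −0.12 to 1.87 in EaHy against PC3M, and for PTGIS from −0.01 to 0.2 in U937 against HEK293. For TBXAS1 they ran from −0.97 to 0.18 in EaHy against HEK293 and −0.24 to 1.68 in U937 against PC3M. The cause was not tested. Values under about 0.5 FPKM, as for PTGS2, HPGDS and PTGDS, rest on few reads of unknown number.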
